A study of Mus musculus with 6 samples.

Results

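The genes described here are 7 matrix metalloproteinases (Mmp2, Mmp3, Mmp9, Mmp10, Mmp13, Mmp14 and Mmp15) and 3 tissue inhibitors of metalloproteinases (Timp1, Timp2 and Timp3). They were found by their symbols among the 14719 gene annotations that carried reads, and all 10 had at least 1 read. They were compared between CD24- and CD24+ cells of the Mvt1 line, a mouse mammary carcinoma line of FVB/N origin. The cells were stained for CD24 on their surface, sorted into the 2 groups by flow cytometry and grown as adherent cells in DMEM with fetal bovine serum, and mRNA was sequenced from 3 plates of each group. No genetic change or drug separated the groups. Both come from 1 cell line and no independent sorts are described, so the SDs and p-values measure the spread between plates. Whether a difference goes with CD24 or with anything else that came to differ between the sorted cells cannot be told apart. These are bulk libraries, in which fewer cells expressing a gene and less of its RNA per cell cannot be told apart.

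Matrix metalloproteinases are zinc-dependent enzymes that are made as inactive proenzymes and, once cleaved, cut collagens, proteoglycans and other proteins of the extracellular matrix. TIMPs bind in the active site of the mature enzymes and block them. The membrane-bound enzyme Mmp14 activates the proenzyme of Mmp2 in a complex that contains Timp2, so that an inhibitor takes part in the activation. In mammary tumours these enzymes are known for their part in matrix turnover, branching and invasion, and many of them are made by stromal cells rather than by the carcinoma cells.

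Mmp3, Mmp10 and Mmp13 lie in a cluster of MMP genes on chromosome 9, and their promoters differ in letters from those of the other members. RefSeq promoters of GRCm38.p6 were matched for 8 of the 10 members (not Mmp2 and Mmp9). The 250 bases before the start were searched on both strands for TGANTCA, the core letters bound by AP-1 (Fos and Jun proteins), for AGGAAG, a core of Ets factor sites, for TATAAA and for GGGCGG, the core of the GC box. No match of one motif in the members overlapped a match of another. TGANTCA was found in 3 of the 8 promoters, Mmp3, Mmp10 and Mmp13, and in 6.75% of 32851 promoters in all. The same 3 held TATAAA, which 12.4% of promoters hold, and none of the 3 held GGGCGG, which the other 5 members and 32.7% of promoters hold. Among all MMP and TIMP genes with a promoter, TGANTCA was in 8 of 10 on chromosome 9 and in 0 of 12 on other chromosomes. This count is by gene, with a match in any of its promoters, while the share of all promoters is by promoter. Mmp7 and Mmp12 have 2 promoters each, of which 1 held TGANTCA. The chromosome 9 genes are related by duplication and are not independent cases. AGGAAG was in 5 of the 8 members (Mmp3, Mmp13, Mmp14, Timp1 and Timp3) and in 29.5% of promoters. A match is a match of letters and shows no binding. The AGGAAG matches of Mmp3 (at base -183 from the start) and Mmp14 (-209), and a match of Timp1 (-175), lie outside the stretch printed below. The 110 bases before the start are shown for the 3 cluster genes and, for contrast, for Mmp14 and Timp1, with TGANTCA and AGGAAG on either strand in capitals.
Mmp3, chr9:7445712-7445821, plus strand: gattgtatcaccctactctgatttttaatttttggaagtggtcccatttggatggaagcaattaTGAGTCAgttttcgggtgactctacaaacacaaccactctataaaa
Mmp10, chr9:7502232-7502341, plus strand: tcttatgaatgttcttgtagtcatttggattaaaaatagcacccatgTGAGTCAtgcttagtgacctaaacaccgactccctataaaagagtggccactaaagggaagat
Mmp13, chr9:7272404-7272513, plus strand: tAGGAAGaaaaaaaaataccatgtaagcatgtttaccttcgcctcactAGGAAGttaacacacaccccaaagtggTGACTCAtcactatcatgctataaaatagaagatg
Mmp14, chr14:54431488-54431597, plus strand: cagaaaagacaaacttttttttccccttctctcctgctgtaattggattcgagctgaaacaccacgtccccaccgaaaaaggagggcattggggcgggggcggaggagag
Timp1, chrX:20870056-20870165, plus strand: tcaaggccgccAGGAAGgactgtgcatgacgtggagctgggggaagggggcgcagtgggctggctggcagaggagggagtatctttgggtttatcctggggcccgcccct

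The unit of the deposited data is a distinct 47-nt read sequence with 1 location on mm9 and its count, so the differences can be followed down to single sequences. The most frequent read that lies in the coding sequence and is found in no other gene is shown for the 5 members with the most reads, on the strand of the gene. Here and in what follows, the 3 values of a group stand in the order of replicates 1, 2 and 3. For Mmp3 it was read 27, 16 and 14 times in CD24- libraries and 5, 6 and 5 times in CD24+ libraries. For Mmp14 the counts in the same order were 7, 7 and 4, and 8, 21 and 22. For Timp1 they were 8, 4 and 14, and 4, 13 and 10. The Timp2 read had counts of 28, 33 and 30, and 13, 53 and 57. The Timp3 read was absent from the CD24- libraries (0, 0 and 0) and was counted 2, 8 and 1 times in CD24+ libraries. These are raw counts, and CD24+ replicates 2 and 3 were the deepest libraries.
Mmp3, chr9:7451257-7451303: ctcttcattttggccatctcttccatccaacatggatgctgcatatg
Mmp14, chr14:55057906-55057952: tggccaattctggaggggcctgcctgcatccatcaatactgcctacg
Timp1, chrX:20450508-20450554: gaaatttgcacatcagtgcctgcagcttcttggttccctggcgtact
Timp2, chr11:118165023-118165069: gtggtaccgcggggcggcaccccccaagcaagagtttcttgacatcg
Timp3, chr10:85806685-85806731: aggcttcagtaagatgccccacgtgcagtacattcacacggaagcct

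Libraries held 9046025 to 25692147 mapped reads, of which 71.7% to 74.3% were annotated to a gene (6486204 to 19083568 reads, fewest in CD24+ replicate 1), and the 10 members took 0.0753% to 0.0927% of the gene reads. Cd24a, the gene of the sorted marker, averaged 10.2 ± 2.79 CPM (edgeR's unit, reads relative to all gene reads of a library after TMM scaling) over CD24- libraries and 77.2 ± 7.31 CPM over CD24+ libraries (SD, n = 3). The labels call the cells mammary epithelial cancer cells, and of 8 epithelial markers the defining Epcam and Cdh1 had 6 and 2 reads over all libraries, while Krt8, Krt18 and Krt19 passed the filter and were lower in CD24+ cells. The summed level of the epithelial list was 1850.3 to 2043 CPM in CD24- and 759.9 to 904 CPM in CD24+ libraries. Of 8 fibroblast markers 5 passed the filter and all 5 were higher in CD24+ cells, with a summed level of 11.6 to 30.4 CPM in CD24- and 180 to 273 CPM in CD24+ libraries, while Lum and Thy1 had no reads and Fap had 2. Of 8 macrophage markers 3 passed the filter. Cd68 and Itgam were lower in CD24+ cells and 1 was not called (summed level of the list 77.5 to 114 CPM against 32.7 to 43.5). Ptprc, Csf1r and Lyz2 had 2, 6 and 3 reads and Adgre1 had none. The 6 endothelial markers summed to 2.26 to 4.08 CPM in CD24- and 0.682 to 1.89 CPM in CD24+ libraries. The call of a marker that passed the filter only through the group in which it was higher, such as Dcn, is a description. So are the counts that hold it. These lists moved with the groups alongside the members, and their part in the members' differences was not tested.

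Of the 10 members 9 passed the filter on low counts and entered the quasi-likelihood test of edgeR, with 11108 genes in all. At an adjusted p below 0.05, Mmp2, Mmp14, Timp2 and Timp3 were higher in CD24+ cells, Mmp3, Mmp15 and Timp1 were lower, and Mmp10 and Mmp13 did not pass. Mmp2 and Mmp15 passed the filter only through the group in which they were higher, so their calls, and the counts and medians that hold them, are a description. The median log2 fold-change was 0.00 for the 6 tested proteases and 0.62 for the 3 inhibitors, beside 0.02 for all tested genes. The same test called 46.1% of all genes, 23.9% as higher and 22.3% as lower, so calls were frequent throughout these libraries. The groups did not overlap for 8 of the 10 members, or 7 of the 9 tested ones, and likewise for 57.3% of all tested genes. Log2 fold-changes are given as CD24+ over CD24-, with Benjamini-Hochberg adjustment over all tested genes.

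**Figure D1:**
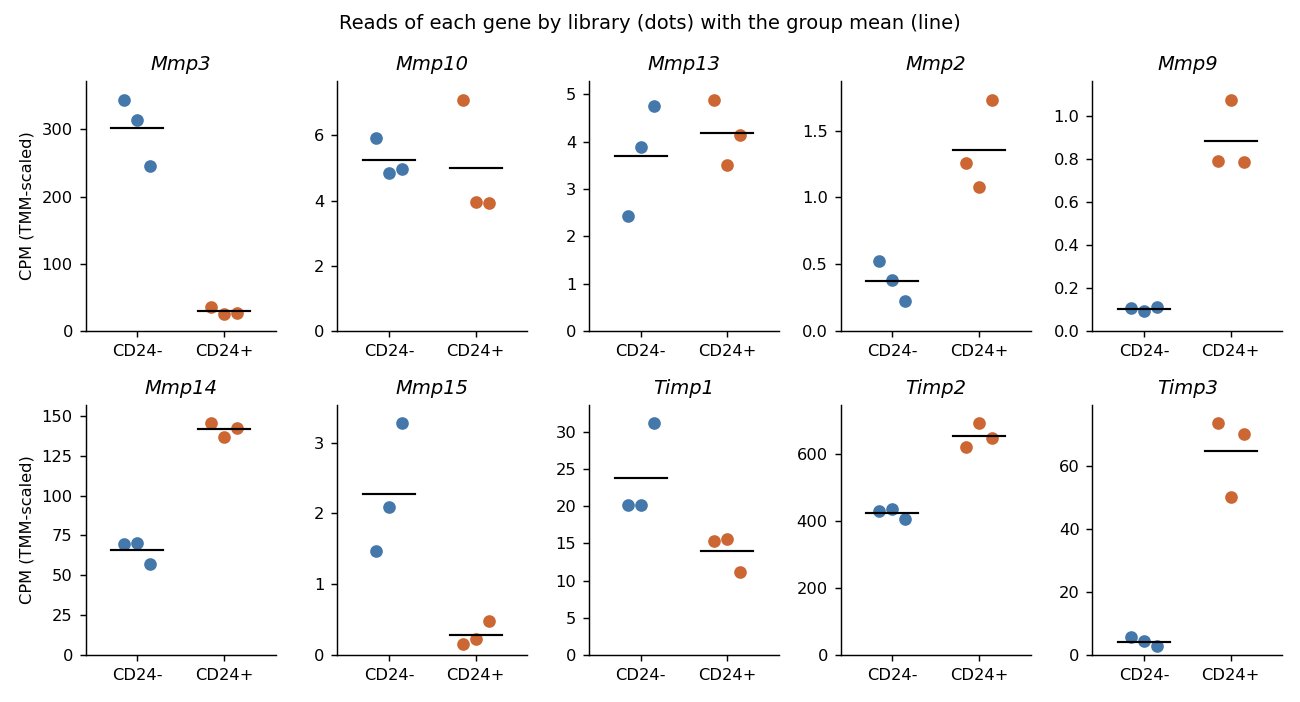
Reads of each member in CPM (y axis, from 0, a scale of its own in each panel) in the 3 CD24- and 3 CD24+ libraries (dots), with the group mean as a line. The dots of the groups lie apart in every panel except those of Mmp10 and Mmp13.

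Mmp3, or stromelysin, which cuts proteoglycans, laminin and fibronectin and activates other proenzymes, was much lower in CD24+ cells. Its level was 344, 314 and 246 CPM in CD24- libraries and 35.3, 26.1 and 26.7 CPM in CD24+ libraries. Every CD24- library was far above every CD24+ one, with CD24- replicate 3 the lowest of its group. The log2 fold-change was -3.39 (with a standard error, SE, of 0.15 and an adjusted p of 1.19e-07, edgeR), a 10.5-fold lower level in CD24+ cells. It was smaller on counts of distinct sequences (-2.25, adjusted p = 1.11e-06, edgeR), which rise less than the reads where reads are many. Under an estimate built on median coverage it was -2.42 (adjusted p = 2.50e-05, limma). That estimate adds a pseudocount of 10 to each value and so lowers fold-changes, most of all at low levels. Over its coding sequence alone the level went from 248 ± 42.6 to 24.5 ± 4.71 CPM, and over its 3′ untranslated part from 41.1 ± 5.80 to 3.75 ± 0.169 CPM (SD, n = 3 each). The ratios of these means were -3.34 and -3.45 on the log2 scale, a like amount over both parts.

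Mmp10, another stromelysin, and Mmp13, an interstitial collagenase, lie in the same cluster as Mmp3, and neither passed the test. Mmp10 had 5.90, 4.84 and 4.97 CPM in the CD24- libraries and 7.09, 3.96 and 3.94 CPM in CD24+ libraries. Its groups overlapped, with CD24+ replicate 1 above all others, and the log2 fold-change was -0.15 with a 95% interval from -0.72 to 0.41 (adjusted p = 0.644, edgeR). Mmp13 had 2.42, 3.89 and 4.74 CPM against 4.88, 3.51 and 4.15 CPM. These groups overlapped as well, and the log2 fold-change was 0.15 with an interval from -0.44 to 0.74 (adjusted p = 0.670, edgeR). Neither interval reaches the change of Mmp3, whose own interval ran from -3.73 to -3.04. For each read of Mmp10 there were 58.3, 65.0 and 49.4 reads of Mmp3 in CD24- libraries and 4.98, 6.60 and 6.79 in CD24+ libraries. The ratio to Mmp13 was 142, 80.8 and 51.8 against 7.23, 7.45 and 6.44. Neither ratio overlapped between groups, and an exact permutation test gave p = 0.1 for both (two-sided), the smallest p that 3 libraries against 3 allow. The ratios are made from the counts already compared above, so they restate the fall of Mmp3 and are no separate evidence.

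Mmp3 and Mmp10 are similar enough to exchange reads. Of the 47-base windows of their transcripts 149 are identical, 8.49% of those of Mmp3 and 8.89% of those of Mmp10. The annotation gave each such sequence 1 place, and all 965 reads of the pair that are found in more than 1 gene were counted for Mmp3 (9.70% of its reads) and 0 for Mmp10. These shared reads numbered 304, 315 and 210 in CD24- libraries and 25, 52 and 59 in CD24+ libraries, and which gene each came from cannot be told apart. A few windows of Mmp3 are also shared with Gm15244 (10) and Gm15242 (2). On reads that match a single GENCODE gene, which leaves out the shared windows of both, the log2 fold-change was -3.43 for Mmp3 (adjusted p = 8.84e-08) and -0.11 for Mmp10 (adjusted p = 0.765, edgeR). The value of Mmp10 as deposited holds none of the shared reads.

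The gelatinases Mmp2 and Mmp9, which cut denatured collagen and type IV collagen, had few reads in both groups. Mmp2 was counted 5, 4 and 2 times in CD24- libraries and 8, 19 and 33 times in CD24+ libraries, or 0.527, 0.380 and 0.226 CPM against 1.26, 1.07 and 1.73 CPM. All CD24+ values were above all CD24- values, and the log2 fold-change was 1.83 (SE 0.43, adjusted p = 0.00554, edgeR). Mmp2 passed the filter only through the CD24+ libraries. Of the 71 reads annotated Mmp2 over all libraries 54 matched its transcripts (76.1%), the lowest share of any member. Mmp9 was counted once in each CD24- library and 5, 19 and 15 times in CD24+ libraries, and did not pass the filter. Summed over libraries, 3 reads against 39 gave a ratio of rates of 8.71 in favour of CD24+ cells, with an exact 95% interval from 2.77 to 44.1 that covers counting error only. Without a filter edgeR gave Mmp9 an adjusted p of 0.00151 (log2 fold-change 2.99). That value is a description, since nearly all reads of Mmp9 lie in the group in which it was higher.

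Mmp14, the membrane-type enzyme that activates Mmp2 and cuts fibrillar collagen at the cell surface, had the highest level per length of the proteases in CD24+ cells. It had 69.8, 70.4 and 56.9 CPM in the CD24- libraries and 145, 137 and 142 CPM in CD24+ libraries. The CD24+ values were close together and all well above the CD24- ones. The log2 fold-change was 1.10 (SE 0.10, adjusted p = 8.04e-06, edgeR), a 2.15-fold higher level. It was alike over the 5′ untranslated part, the coding sequence and the 3′ part, with log2 ratios of 1.12, 1.09 and 1.22.

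Mmp15, another membrane-type enzyme, went the other way at a low level. It was counted 14, 22 and 29 times in the CD24- libraries and 1, 4 and 9 times in CD24+ libraries, or 1.48, 2.09 and 3.27 CPM against 0.158, 0.226 and 0.472 CPM. All CD24- values were higher, and the log2 fold-change was -2.78 (SE 0.46, adjusted p = 7.07e-04, edgeR). Mmp15 passed the filter only through the CD24- libraries, and with 14 reads in the CD24+ group its size is poorly fixed, with a 95% interval from -3.80 to -1.76 and a value of -3.39 without CD24+ replicate 3.

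**Figure D2:**
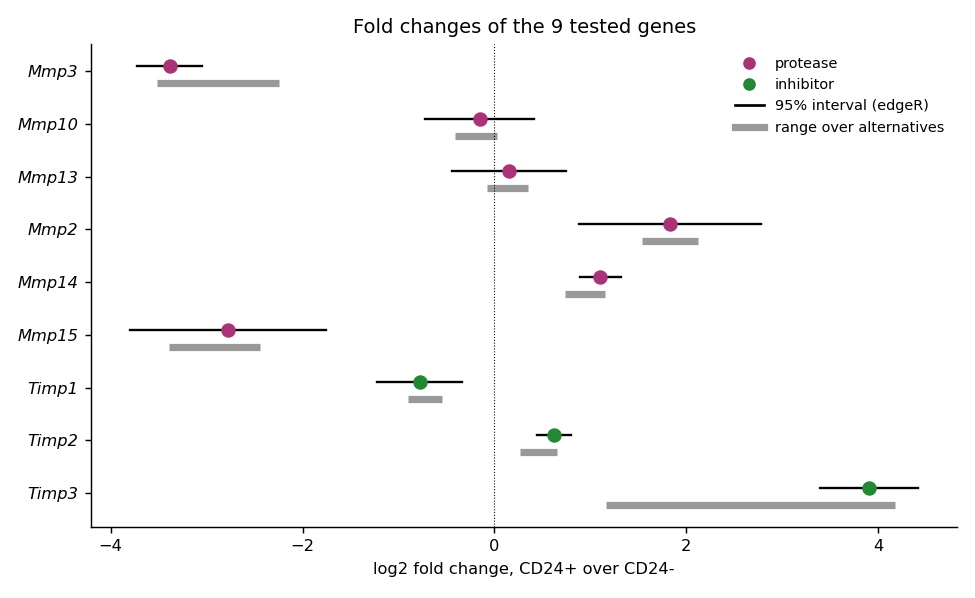
Log2 fold-change of the 9 tested members (x axis, CD24+ over CD24-), with the 95% interval of the edgeR fit as a black line and the range over the alternative settings as a grey bar. Mmp3, Mmp15 and Timp1 lie below 0 and Timp3 furthest above it, while the intervals of Mmp10 and Mmp13 include 0 and the grey bar of Timp3 reaches down to 1.16.

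Among the inhibitors Timp2, which also takes part in the activation of Mmp2, had the most reads of all members. Its level was 431, 435 and 405 CPM in the CD24- libraries and 621, 692 and 647 CPM in CD24+ libraries. The groups did not overlap and the values within each were close. The log2 fold-change was 0.62 (SE 0.08, adjusted p = 1.15e-04, edgeR), a 1.54-fold higher level. With each distinct sequence counted once per library the log2 fold-change was 0.27 and no longer passed (adjusted p = 0.129, edgeR). In the same libraries a distinct Timp2 sequence stood for 2.03, 2.14 and 1.87 reads in CD24- libraries and for 1.93, 3.48 and 3.44 reads in CD24+ libraries. The higher values were those of CD24+ replicates 2 and 3, the deepest libraries. The number of distinct sequences of a transcript is limited, so this count rises less than the reads where reads are many. Its part in the lower fold-change was not tested.

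The parts of the Timp2 transcript did not change alike. The 5′ untranslated part went from 17.0 ± 2.02 to 25.2 ± 2.34 CPM, the coding sequence from 130 ± 5.91 to 158 ± 7.13 CPM and the 3′ untranslated part from 269 ± 17.8 to 464 ± 30.8 CPM (SD, n = 3 each), log2 ratios of 0.57, 0.27 and 0.78. The coding sequence thus had the smallest ratio, with the 5′ part between the other two. For each read in the coding sequence there were 2.27, 2.02 and 1.92 reads in the 3′ part in CD24- libraries and 2.79, 2.98 and 3.04 in CD24+ libraries. The groups did not overlap, and an exact permutation test gave p = 0.1 (two-sided), the smallest p of this design. The same ratio overlapped between groups for Mmp3 (0.166 ± 0.00743 and 0.156 ± 0.0280, exact p = 0.8), Mmp14 (0.224 ± 0.0338 and 0.242 ± 0.0273, exact p = 0.6) and Timp3 (4.94 ± 2.49 and 5.28 ± 0.580, exact p = 0.8, n = 3 each). The Timp3 ratios of the CD24- libraries rest on only 14, 5 and 3 coding reads and are poorly fixed. These 4 ratios are a family of 4 comparisons, none of which can pass adjustment in this design.

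**Figure D3:**
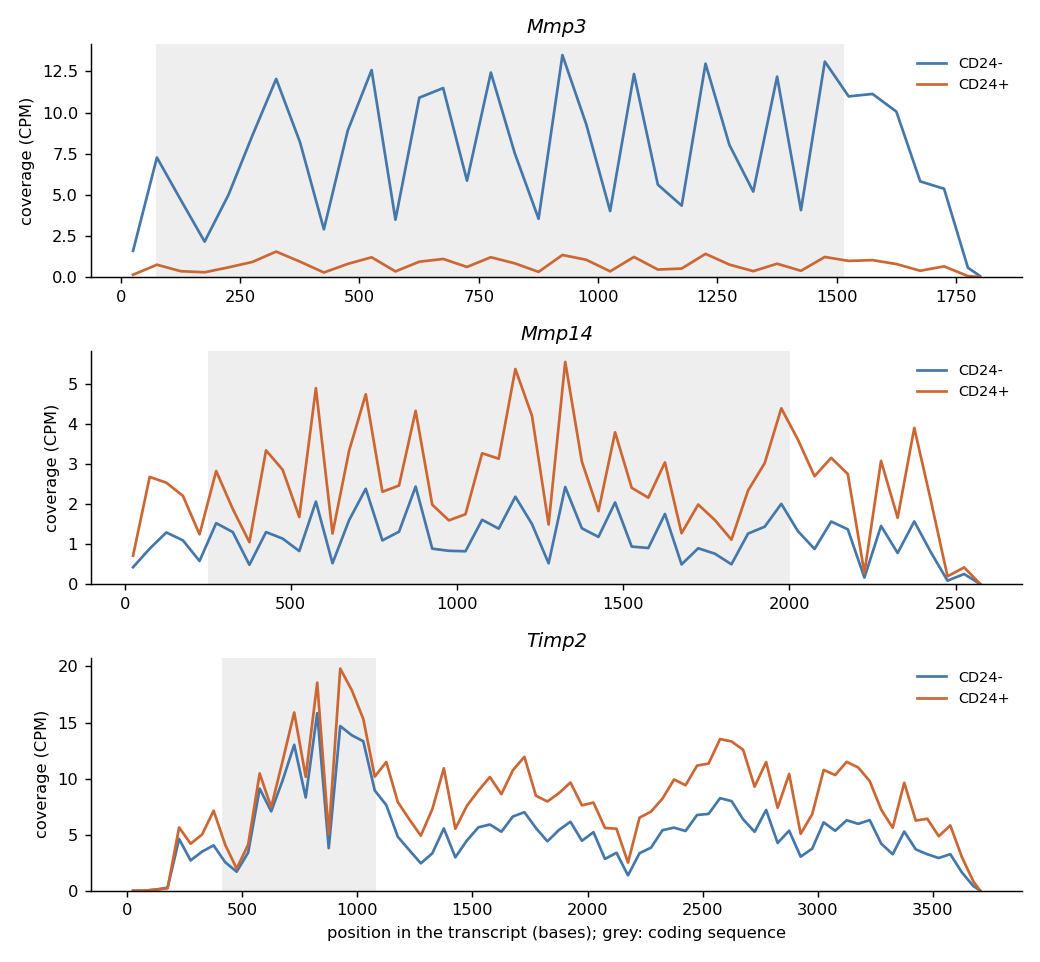
Mean read coverage in CPM (y axis, from 0) in bins of 50 bases along the transcripts of Mmp3, Mmp14 and Timp2 (x axis, position in bases), for CD24- (blue) and CD24+ (orange), with the coding sequence in grey. CD24- lies far above CD24+ along Mmp3 and below it along Mmp14, while for Timp2 the lines lie closer over the coding sequence than over the 3′ part.

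Timp3, the inhibitor that is held in the extracellular matrix and also blocks ADAM proteases, had the largest increase of the tested members. It had 5.80, 4.27 and 2.71 CPM in the CD24- libraries and 73.7, 50.4 and 70.3 CPM in CD24+ libraries. The lowest CD24+ value was several times the highest CD24- value. The log2 fold-change was 3.91 (SE 0.23, adjusted p = 5.72e-07, edgeR), a 15.01-fold higher level. Under the median-coverage estimate it was 1.16, still past the threshold (adjusted p = 2.80e-04, limma).

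Timp1, a secreted inhibitor of most MMPs, was the inhibitor that fell. It had 20.1, 20.2 and 31.2 CPM in the CD24- libraries and 15.3, 15.6 and 11.1 CPM in CD24+ libraries. The groups were close but did not overlap, and CD24- replicate 3 stood above the others. The log2 fold-change was -0.78 (SE 0.20, adjusted p = 0.00913, edgeR), a 1.72-fold lower level.

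The counts of Timp1 and Timp3 hold only part of the reads of their transcripts. Both genes lie within synapsin genes on the other strand, Timp1 in Syn1 and Timp3 in Syn3. The annotation went by the strand of the read where such genes overlap, although the library kit does not mark strand: of the reads that match the Timp1 transcript, all 1211 in the sense direction were annotated Timp1 and all 1518 in the antisense direction Syn1. For the Timp3 transcript the numbers were 2781 sense reads as Timp3 and 2701 antisense reads as Syn3. Of the windows of the Timp3 transcript 36.1% also lie in GENCODE transcripts of Syn3, and reads there cannot be assigned to either gene by sequence. On reads that match a single GENCODE gene, which leaves these windows out, Timp3 had a log2 fold-change of 3.87 (adjusted p = 2.07e-07, edgeR). For members without such a host gene both directions were kept, with 52.8% sense reads for Mmp3, 50.3% for Mmp14 and 49.4% for Timp2. Reads of the Timp1 transcript were 86.1% of all reads annotated Syn1, and reads of the Timp3 transcript 97.1% of those annotated Syn3.

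With these reads added, Timp1 had 51.6 ± 8.93 CPM in CD24- and 30.9 ± 7.53 CPM in CD24+ libraries, and Timp3 had 8.04 ± 1.997 and 125 ± 23.5 CPM (SD, n = 3 each). The share given to the host gene was 52.1% to 60.2% for Timp1 and 41.9% to 57.7% for Timp3 in single libraries. The fold-changes moved little, to -0.76 for Timp1 (adjusted p = 0.00641) and 3.95 for Timp3 (adjusted p = 1.85e-07, edgeR), a count chosen after seeing the data. Syn1 and Syn3 as annotated had log2 fold-changes of -0.77 and 3.85, which rest on these reads. The levels of Timp1 and Timp3 in the deposited annotation are therefore low against those of the other members.

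**Figure D4:**
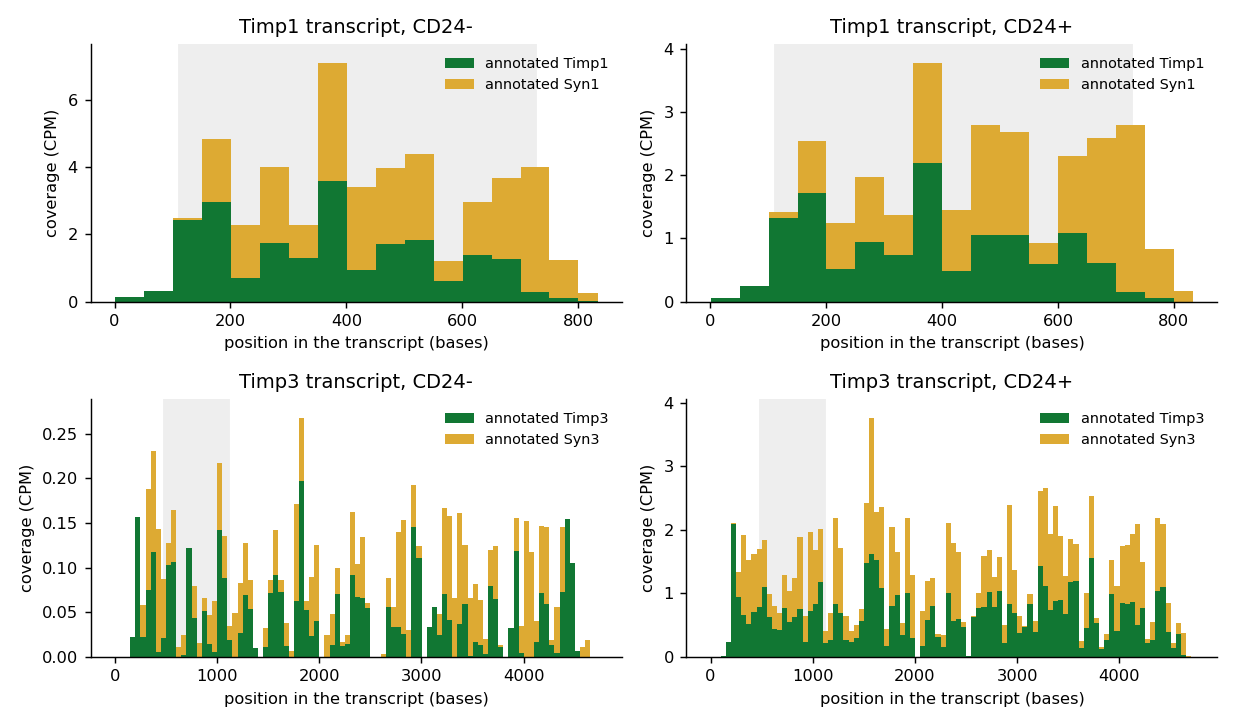
Mean coverage in CPM (y axis, from 0, own scale in each panel) in bins of 50 bases along the Timp1 and Timp3 transcripts (x axis, position in bases), stacked by the annotation of the read, with the coding sequence in grey. Reads annotated to the host genes Syn1 and Syn3 are yellow, and those annotated Timp1 and Timp3 are green. Both lie over most of both transcripts in both groups. Nearly all reads are green at the 5′ end, and most are yellow at the very 3′ end.

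Levels were compared between genes only per length, as CPM per kb of transcript. The lengths make no allowance for reads across exon junctions, which exact matching leaves out. Mmp3 has 10 exons in 1801 bases and Timp2 5 in 3709, so this loss can differ between genes. In CD24- cells the order was Mmp3 (167 ± 28.1), Timp2 (114 ± 4.44), Timp1 (28.6 ± 7.61), Mmp14 (25.3 ± 2.94) and Mmp10 (3.04 ± 0.337), and the other members were below 2 CPM per kb (SD, n = 3). In CD24+ cells it was Timp2 (176 ± 9.63), Mmp14 (54.5 ± 1.70), Timp1 (16.8 ± 3.002), Mmp3 (16.3 ± 2.85) and Timp3 (13.7 ± 2.67), followed by Mmp10 (2.90 ± 1.05). Among these neighbours the libraries of Timp1 and Mmp14 overlapped in CD24- cells, and those of Timp1 and Mmp3 and of Mmp3 and Timp3 overlapped in CD24+ cells. The lead thus passed from Mmp3 in CD24- cells to Timp2 in CD24+ cells. The places of Timp1 and Timp3 rest on the deposited annotation. On all reads of the members' transcripts, whatever their annotation, Timp1 had 61.9 ± 10.7 CPM per kb in CD24- cells, apart from Mmp14 in every library. In CD24+ cells the same count put Timp1 (37.1 ± 9.03) and Timp3 (26.5 ± 4.98) above Mmp3 (16.1 ± 2.79, SD, n = 3).

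The proteases were set against the inhibitors by the sum of their levels per length. The 7 proteases summed to 223, 207 and 164 CPM per kb in CD24- libraries and to 82.3, 71.5 and 74.4 CPM per kb in CD24+ libraries. The 3 inhibitors summed to 142, 143 and 147 against 201, 216 and 203 CPM per kb. On these counts protease transcripts exceeded inhibitor transcripts in all CD24- libraries and fell short of them in all CD24+ libraries. The log2 ratio of the sums was 0.65, 0.53 and 0.15 against -1.29, -1.59 and -1.45, or 0.45 ± 0.26 and -1.44 ± 0.15 (SD, n = 3 each), a difference of -1.89. On counts of distinct sequences the difference was -1.04. With the reads annotated Syn1 and Syn3 included, on all reads of the members' transcripts, the log2 ratio was 0.32, 0.24 and -0.18 against -1.56, -1.81 and -1.65. The difference between groups was then -1.80, and the proteases exceeded the inhibitors in only 2 of the 3 CD24- libraries, not in replicate 3. Without division by length the difference was -1.74, and the proteases were below the inhibitors in every library, with sums of 316 to 424 against 439 to 459.9 CPM in CD24- libraries and 173 to 195 against 710.0 to 758 CPM in CD24+ libraries. The order of the sums within CD24- cells thus depends on these choices. It also shares the limit given above, that reads across exon junctions are left out and the lengths make no allowance for them. This is a description of transcript levels, with no test, because the members were chosen with results known.

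Single genes carried both sums. Mmp3 made up 83.3% to 85.8% of the protease level in CD24- libraries and 19.9% to 23.8% in CD24+ ones, and Mmp14 12.1% to 13.4% and 68.1% to 73.7%. Timp2 made up 74.2% to 86.4% of the inhibitor level in all libraries on the deposited annotation, and 58.5% to 75.4% with the reads annotated Syn1 and Syn3 included. Without Mmp3 the difference of the log2 ratio turned to 0.46, and without Timp2 it was -1.44, both chosen after seeing the data. For the ratio of sums the sign of the difference therefore rests on Mmp3, since the sum of the other 6 proteases was higher in CD24+ cells by a larger factor than that of the inhibitors.

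**Figure D5:**
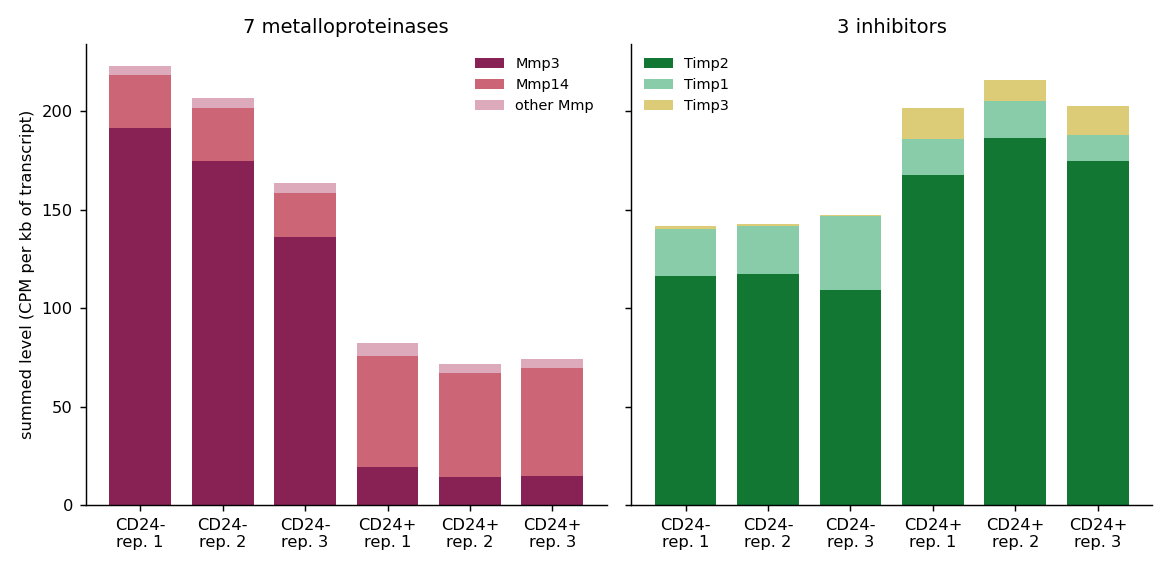
Summed level in CPM per kb of transcript (y axis, from 0) of the 7 proteases (left) and the 3 inhibitors (right) in each library, stacked by gene, on the deposited annotation. Mmp3 fills most of the protease bars in CD24- libraries and Mmp14 in CD24+ ones, while Timp2 fills most of every inhibitor bar.

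Of the 17 other genes of the MMP and TIMP families on a fixed list, 14 had reads and 6 were tested, of which 2 passed as higher and 0 as lower (median log2 fold-change 0.12). Mmp11, a stromelysin activated inside the cell, had 2.21, 1.71 and 1.24 CPM in CD24- and 12.9, 10.97 and 11.4 CPM in CD24+ libraries (log2 fold-change 2.75, adjusted p = 4.43e-06, edgeR). Mmp28 had 16.0, 12.9 and 10.4 against 30.3, 20.02 and 33.0 CPM (1.07, adjusted p = 0.00208, edgeR). The CD24+ values were above the CD24- values in both. The median-coverage estimate, whose pseudocount lowers the fold-changes of genes at such levels by construction, gave 0.26 for Mmp11 and 0.32 for Mmp28, both past the threshold (adjusted p = 0.00260 and 0.0103, limma). Mmp1b, Mmp19, Mmp24 and Mmp25 did not pass, and Mmp7, Mmp8 and Timp4 had no reads. On chromosome 9, Mmp1a of the same cluster was counted 37 times in CD24- and 11 times in CD24+ libraries and was not tested.

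Of 22 genes of the related ADAM and ADAMTS proteases, several of which Timp3 blocks, 15 were tested, with 4 called higher and 4 lower (median -0.01). Adamts12 (4.12), Adamts5 (3.80) and Adamts7 (0.89) had the largest increases, and Adamts4 (-1.38), Adam8 (-1.17) and Adamts10 (-0.84) the largest decreases on the log2 scale. By median coverage Adamts7 (0.037, adjusted p = 0.741) and Adamts10 (-0.089, adjusted p = 0.289, limma) no longer passed, and Adamts4 and Adam8 had -0.33 and -0.36. Adamts10 was also lost on counts of distinct sequences (adjusted p = 0.0580) and without CD24- replicate 1 (adjusted p = 0.0721, edgeR). Adamts5 and Adamts12, like Mmp2, had few reads in CD24- cells, 10 and 6 in all. Both passed the filter only through the CD24+ libraries, so their calls, and the count and median that hold them, are a description. Among 9 activators and docking proteins of the proenzymes 6 were tested and only Plaur, the receptor of urokinase, was called (-0.56, adjusted p = 0.0115, edgeR). That call was lost on counts of distinct sequences (-0.35, adjusted p = 0.114) and without CD24+ replicate 3 (-0.50, adjusted p = 0.0522, edgeR). Of 7 other restrainers of MMP activity 5 were tested, with Serpine2 (2.86, or 0.86 by median coverage) and Thbs1 (1.40, down to 0.82 over the alternatives) higher and 0 lower. The medians of the last 2 lists were 0.09 and 0.26.

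Transcription factors known to bind AP-1, Ets and related sites in MMP promoters were all tested, 16 of 16, with 4 called higher and 3 lower (median 0.09). Cebpb (1.34), Ets1 (1.02) and Ets2 (0.78) had the largest increases, and Etv5 (-0.83), Fosl1 (-0.61) and Junb (-0.28, adjusted p = 0.0490, edgeR) the decreases. Over the alternatives the lowest values of Cebpb, Ets1 and Ets2 were 0.90, 0.62 and 0.33, and all stayed past the threshold. Fosl1, a partner in AP-1, had 76.1, 81.5 and 123 CPM in CD24- and 59.6, 65.1 and 58.6 CPM in CD24+ libraries, and did not pass by median coverage (-0.32, adjusted p = 0.0539, limma). Junb lost its call under most alternatives. Of 12 growth factors and cytokines known to induce MMP genes 7 were tested, with Tgfb2 higher (1.90) and 4 lower, led by Tgfa (-1.66, or -0.81 by median coverage), Areg (-1.01) and Tgfb1 (-0.56), and a median of -0.35. Over the alternatives the smallest decreases of Areg and Tgfb1 were -0.43 and -0.36, and both stayed past the threshold. Of 12 matrix substrates all were tested, 11 were higher and 0 lower, with a median of 3.13. Col3a1, a substrate of Mmp13 and Mmp14, had 3.69 (0.72 by median coverage), while Dcn and Bgn rested on 2 and 3 reads in CD24- cells against 90 and 121 in CD24+ cells. Calls of substrates that passed the filter only through the CD24+ libraries, such as Dcn and Bgn, are a description. So are the count and median that hold them. Col1a1, Col3a1 and Dcn also stand in the fibroblast list above. These lists are described by their counts and medians beside the 23.9% and 22.3% of all genes called higher and lower, and no list was tested as a set.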

How the data were processed

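mRNA was sequenced from 3 plates of CD24- and 3 of CD24+ Mvt1 cells, with a kit that does not mark strand. Reads cut to 47 nt were collapsed by the authors into distinct sequences, each mapped by exact match to 1 location with 1 annotation, and its count per library was deposited, neither normalized nor pooled. The build is mm9 per the submitters' processing notes. For the mapping tool and the origin of the annotation, a name was not given in the sources used here. An exact match leaves out reads across exon junctions and over variants.

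The deposited counts were summed per annotation, repeats and noncoding RNA left out, and tested with edgeR 4.0.16 (TMM, filterByExpr with a minimum count of 10, quasi-likelihood F test, Benjamini-Hochberg, threshold 0.05) in R 4.3.3. Reads without an annotation were 16.9% to 20.2% of a library. No 2 libraries of a group agreed within sampling noise. The chi-square per degree of freedom was 1.74 for CD24- replicates 1 and 2, and 9.82 to 16.0 for every other pair within a group. Transcripts and lengths are those of GENCODE M21, matched by exact sequence, with the best matched transcript per member. Its coordinates (GRCm38) were not mixed with those of mm9. A read was placed in a part of the transcript by its middle base. On simulated counts with known changes the edgeR script was tested before use.

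The members and lists were chosen with earlier results of these data known. All members are named, and of each list at most the 3 largest called changes in each direction. Alternatives were DESeq2 1.42.0, totals without TMM, other filters, distinct sequences, reads of a single GENCODE gene, a median-coverage estimate (pseudocount 10, limma 3.58.1), the replicate block, each library left out, thinning, and for the ratio of sums no division by length and a mean of log2 levels. Figures were drawn with matplotlib 3.10.9, and permutation tests used scipy 1.17.1.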

Additional observations from a re-analysis of the deposited data

Results flagged for a closer look

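Reads that match the transcripts of Timp1 and Timp3 but carry the annotation of another gene lie outside the counts compared above. They numbered 1518 for Timp1, annotated Syn1, and 2701 for Timp3, annotated Syn3, over the 6 libraries. They were present in every library of both groups, with 277, 269 and 285 reads of Timp1 in the CD24- libraries and 138, 326 and 223 in the CD24+ libraries (replicates 1, 2 and 3 in order). For Timp3 there were 39, 45 and 30 reads against 415, 852 and 1320. All of them run antisense to the TIMP transcript.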

How the results depend on the processing

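Of 136 values for single members under the alternatives 133 stayed on the same side of 0 and of the threshold. The exceptions were Timp2 on counts of distinct sequences (0.27, adjusted p = 0.129, edgeR), Mmp10 on the same counts (0.029 in place of -0.15) and Mmp13 without CD24- replicate 1 (-0.076 in place of 0.15, with a range from -0.076 to 0.35 over the libraries left out). Mmp10 and Mmp13 passed the threshold in none of these settings. By low reads, Mmp2, Mmp13 and Mmp15 were not tested under the median-coverage estimate, Mmp2 and Mmp15 not after thinning, and Mmp2 not under the stricter filter or on reads matched to GENCODE transcripts. Under the stricter filter 3 members were then called higher and 3 lower. For other named genes 375 of 392 values were unchanged in this sense and 17 no longer passed, most of them for Junb (adjusted p = 0.0600 under the replicate block, edgeR) and the rest for Adamts7, Adamts10, Plaur and Fosl1.

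The difference of the protease to inhibitor ratio (-1.89) was -1.04 with distinct sequences, -1.65 on reads of a single GENCODE gene, -1.32 as a mean of log2 levels, -1.80 on all transcript reads whatever their annotation, -1.44 without Timp2 and, reversed, 0.46 without Mmp3, and -2.04 to -1.79 with a library left out. Genes called lower were 1547 with distinct sequences against 2475. The median-coverage estimate called 3368 genes against 5126, 1662 of them higher against 2651, and 23 genes of the lists against 36. The cause was not tested. Without any one library the calls were 4064 to 5346, with 2104 to 2802 higher and 1889 to 2544 lower, 4 members higher and 3 lower each time (Mmp2 and Mmp15, which pass the filter through 1 group only, among them), and 32 to 41 genes of the lists. The labels do not say whether the replicate numbers pair the plates. Deviations of same-numbered libraries correlated at 0.0143, -0.252 and -0.310, which cannot decide it without differently numbered libraries beside them. The replicate block left 4484 called genes, with 4 members higher and 3 lower. Values of Mmp2, Mmp9 and Mmp15 are limited by depth, with at most 33 reads in a library.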
